A study of Homo sapiens with 6 samples.

Results

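The genes described here make cholesterol, sense it, or move it within the cell. They were listed by name from knowledge of the pathway, and all 31 were found, each on 1 row, among the 14034 rows of the deposited count table. The cells were JHH-4, an established line from a human hepatocellular carcinoma, grown in medium with fetal bovine serum. There were 3 libraries from wild-type control cells (Control) and 3 from cells that overexpressed hsa-miR-885-5p from a plasmid carrying its primary transcript (miR-885-5p). The treatment of the control cells is not stated in the sources used here, so the microRNA and its plasmid cannot be told apart as the agent. Per the study's design text the 3 libraries are technical replicates, and p-values therefore measure only how such libraries of 1 cell line vary.

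Cholesterol is built from acetyl-CoA. The early enzymes lead through mevalonate to isoprenoid diphosphates, 2 of these larger units are joined to squalene, squalene is cyclised to lanosterol, and a last series of enzymes trims lanosterol to cholesterol. Most of these genes are switched on by the SREBP transcription factors, which are made as membrane proteins of the endoplasmic reticulum. When sterols are plentiful the escort protein SCAP is held there by INSIG proteins. When sterols are low SCAP carries SREBP to the Golgi apparatus, where the proteases MBTPS1 and MBTPS2 release its active part. Hepatocytes are a main site of this synthesis in the body.

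The mature microRNA is shown because its seed, bases 2 to 8 in capitals, sets which sites were searched in the members. It is given by RefSeq on GRCh38.p14 at chr3:10394531-10394552, minus strand. Its complement in a messenger RNA reads GTAATGG, or GTAATGGA with the A that completes an 8mer. The pair of member sites of 7 bases or more, with up to 11 bases of 3′ UTR on each side and the site in capitals, follow it.
hsa-miR-885-5p: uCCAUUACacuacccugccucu
LBR 8mer site: ttaattgtcctGTAATGGAacagtagcaaa
NPC2 7mer-m8 site: agttgtagcaaGTAATGGctaaattaatt

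Cholesterol genes were higher in the cells with miR-885-5p. Of the 31 members 27 rose, 1 fell and 3 did not pass the threshold of 0.05 on the adjusted p (edgeR quasi-likelihood test, Benjamini-Hochberg over all 14034 genes). The background for these counts is large, since 26.3% of all genes were called higher and 26.5% lower. The median log2 fold change was 0.67 over the members and -0.0006 over all genes. A test against a 1.5-fold change called 13 members higher and 0 lower, where it called 3.51% of all genes higher and 2.92% lower. At least 2-fold increases past the plain test were found for 6 members, HMGCS1, MSMO1, IDI1, HSD17B7, TM7SF2 and CYP51A1, and for 3.11% of all genes. The 3 libraries of one group did not overlap those of the other for 26 members above control and 1 below, against 30.2% and 30.3% of all genes. These counts are a description, since the list was chosen with earlier results of these data known.

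**Figure D1:**
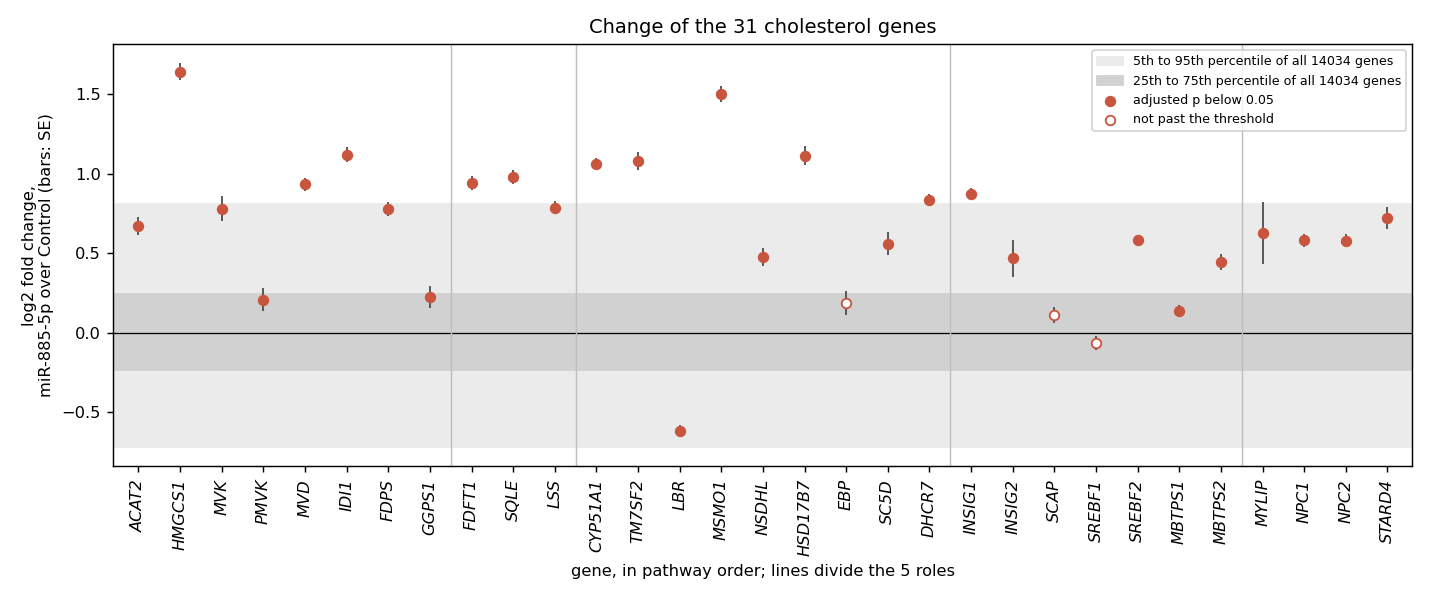
Log2 fold change of miR-885-5p over Control for each of the 31 genes (vertical axis, bars are the SE of the edgeR fit), in pathway order along the horizontal axis, with shaded bands for percentiles of all 14034 genes. HMGCS1 at 1.64 stands highest and MSMO1 follows, LBR at -0.62 is the gene that fell, and EBP, SCAP and SREBF1 (open points) did not pass the threshold.

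The 31 genes together took 0.278%, 0.276% and 0.289% of all counts in the Control libraries, in order of their number, and 0.466%, 0.469% and 0.455% in those with miR-885-5p. Summed FPKM, which divides counts by gene length and library size and so allows genes to be compared, was 608 ± 22.9 in control and 1111 ± 23.8 with miR-885-5p over the 20 enzymes (SD, n = 3 per group). The share of the pathway in the library was thus higher in all 3 miR-885-5p libraries than in any control library. In bulk RNA a change in the number of expressing cells and a change in RNA per cell cannot be told apart.

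The 8 genes of the mevalonate steps all rose, with log2 fold changes from 0.21 to 1.64. HMGCS1, which condenses acetoacetyl-CoA with acetyl-CoA (chromosome 5, 43289395 to 43313512, minus strand), had 58.5, 60.3 and 66.6 CPM (counts relative to library size after TMM scaling) in the Control libraries. With miR-885-5p it had 197, 194 and 187 CPM. No control library came near the others, and it showed the highest log2 fold change of the 31 genes, 1.64 (SE 0.05, adjusted p = 4.17e-08). IDI1, which interconverts the isoprenoid building blocks, had 73.4, 72.8 and 80.6 CPM in control and 167, 166 and 160 CPM with miR-885-5p. Its groups were likewise apart, with a log2 fold change of 1.12 (SE 0.05).

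ACAT2, which makes acetoacetyl-CoA, rose by 0.67 (SE 0.06) on the log2 scale. The mevalonate kinase gene MVK rose by 0.78 (SE 0.08), the decarboxylase gene MVD by 0.93 (SE 0.04), and FDPS, which makes farnesyl diphosphate, by 0.78 (SE 0.05). The kinase that acts between MVK and MVD moved little. PMVK had 34.2, 33.9 and 40.1 CPM in control and 43.0, 41.9 and 39.9 CPM with miR-885-5p, so Control library 3 lay within the other group. Its log2 fold change was 0.21 (SE 0.07, adjusted p = 0.0346), and its call was lost with the replicate number as a block (adjusted p = 0.0667) and when library 1 or 2 of either group was left out (adjusted p = 0.125 and 0.0965 for Control, 0.109 and 0.0927 for miR-885-5p). GGPS1, which lengthens farnesyl to geranylgeranyl diphosphate and leads away from sterols, changed by 0.22 (SE 0.07, adjusted p = 0.0235), and lost its call when Control library 2 or miR-885-5p library 3 was left out (adjusted p = 0.0657 and 0.0953). Over all settings tried the adjusted p ran from 0.00126 to 0.125 for PMVK and from 0.0097 to 0.0953 for GGPS1.

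All 3 genes of the squalene and lanosterol steps rose and passed the 1.5-fold test. FDFT1, which joins farnesyl diphosphate to squalene, rose by 0.94 (SE 0.04) on the log2 scale. SQLE, the squalene epoxidase, had 136, 152 and 142 CPM in control and 278, 280 and 290 CPM with miR-885-5p, with no overlap and a log2 fold change of 0.98 (SE 0.05). LSS, which closes the rings to give lanosterol, rose by 0.79 (SE 0.04).

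Among the 9 genes of the steps after lanosterol 7 rose, 1 fell and 1 did not pass the threshold. MSMO1, the oxidase that starts removal of the methyl groups next to the hydroxyl end (chromosome 4, 165327623 to 165343160), had 40.6, 41.3 and 44.9 CPM in control and 125, 117 and 117 CPM with miR-885-5p. All 3 libraries with the microRNA were far above control, and the level was 2.83-fold higher (SE 0.05 on the log2 scale, adjusted p = 6.21e-08). HSD17B7, which reduces the ketone left by that removal, had 14.5, 14.1 and 13.95 CPM in control and 31.4, 30.2 and 30.3 CPM with miR-885-5p. Its log2 fold change was 1.11 (SE 0.06), with 10.8 ± 0.198 FPKM in control against 24.3 ± 0.305. The dehydrogenase gene NSDHL, whose product acts between MSMO1 and HSD17B7, rose less, by 0.48 (SE 0.05).

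CYP51A1, the demethylase that opens this series, had 274, 264 and 279 CPM in control and 579, 556 and 571 CPM with miR-885-5p (log2 fold change 1.06, SE 0.04). DHCR7, which saturates the last double bond, had 152, 158 and 151 CPM in control and 274, 280 and 271 CPM with miR-885-5p (log2 fold change 0.84, SE 0.04). The desaturase gene SC5D rose by 0.56 (SE 0.07). The isomerase gene EBP had 53.7, 55.4 and 64.9 CPM in control and 67.3, 68.8 and 61.9 CPM with miR-885-5p. Its groups overlapped because Control library 3 lay above miR-885-5p library 3, and the log2 fold change was 0.19 (SE 0.07, adjusted p = 0.0578). EBP passed under 7 of the 16 other settings, with adjusted p from 0.00175 without Control library 3 to 0.201.

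TM7SF2 and LBR encode enzymes for the same reduction, the step that follows CYP51A1, and went opposite ways. LBR, which is also the lamin B receptor of the inner nuclear membrane (chromosome 1, 225401502 to 225428925, minus strand), had 187, 182 and 181 CPM in control and 124, 116 and 119 CPM with miR-885-5p. Its groups were apart, the log2 fold change was -0.62 (SE 0.04, adjusted p = 1.46e-06), and it was lower under all 16 other settings, from -0.64 to -0.55. TM7SF2, which lies in the endoplasmic reticulum (chromosome 11, 65111845 to 65116384), had 20.5, 19.1 and 19.5 CPM in control and 40.6, 42.2 and 41.9 CPM with miR-885-5p. It rose by 1.08 (SE 0.05) on the log2 scale, within the range of the other sterol enzymes.

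Per length the balance of the pair shifted. TM7SF2 had 0.283, 0.241 and 0.251 times the FPKM of LBR in control and 0.795, 0.836 and 0.875 times with miR-885-5p. The summed FPKM of both genes was 57.7, 53.8 and 55.0 in control and 55.4, 54.1 and 55.0 with miR-885-5p. The sums thus lay within the range of the control libraries while the ratio did not. The ratio and the sum were taken after the values had been seen. An exact permutation test of 3 against 3 libraries gave p = 0.1 for the ratio and p = 0.9 for the sum. The smallest p it can give is 0.1.

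**Figure D2:**
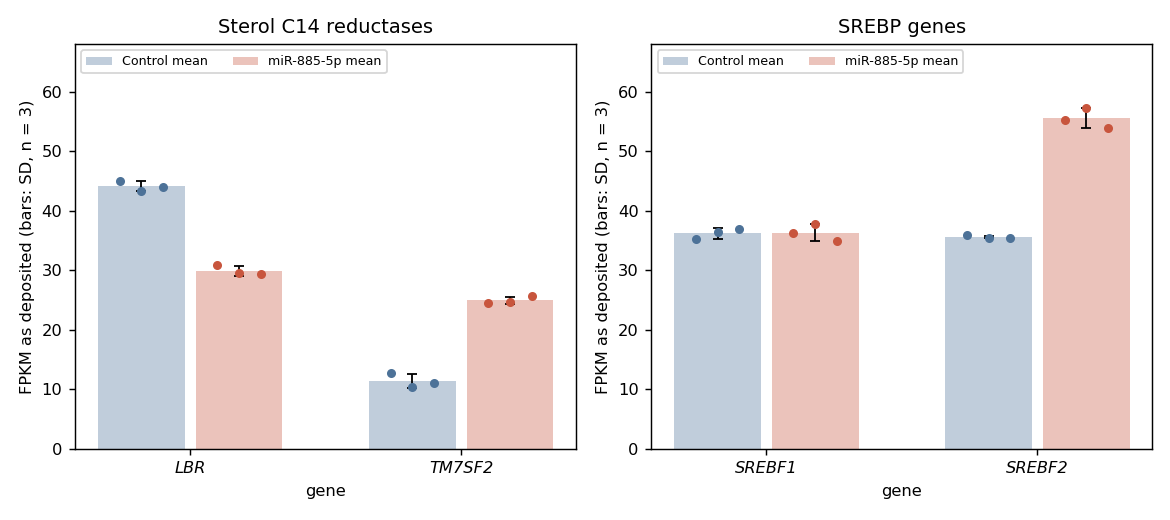
FPKM (vertical axes, from 0) of LBR and TM7SF2 on the left and of SREBF1 and SREBF2 on the right, with bars for the mean, lines for the SD and points for the 3 libraries of each group. LBR was 44.1 ± 0.816 in control and 29.9 ± 0.837 with miR-885-5p while TM7SF2 was 11.4 ± 1.19 and 24.9 ± 0.637, and SREBF2 rose while SREBF1 was at 36.2 ± 0.908 and 36.3 ± 1.47.

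LBR, the member that fell, is also the member with an 8mer site for miR-885-5p, the sequence printed above. The site lies in its longest annotated 3′ UTR (GENCODE 29, GRCh38) at chr1:225402046-225402053 and starts at base 1250 of 1801. The other site of 7 bases, in NPC2 at chr14:74479530-74479536, belongs to a gene that rose by 0.58 (SE 0.04). A 6mer, TAATGG, was the strongest match in GGPS1, INSIG1, INSIG2 and MBTPS2, and 25 members held none of the searched forms. Of 12304 genes with a 3′ UTR 2.54% hold an 8mer and 8.01% an 8mer or 7mer-m8, against 1 and 2 of the 31 members. A match is a description of the letters, and whether the microRNA acts at these sites was not tested.

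The genes that sense sterols were more divided, with 5 of 7 higher and 0 lower, and 1 past the 1.5-fold test. INSIG1, itself a target of the SREBP factors (chromosome 7, 155297776 to 155310235), had 76.2, 73.5 and 73.8 CPM in control and 135, 137 and 137 CPM with miR-885-5p. Its libraries agreed closely within each group, and it rose by 0.87 (SE 0.04, adjusted p = 1.43e-07) on the log2 scale. INSIG2, its paralog, had 15.2, 15.9 and 20.01 CPM in control and 26.6, 22.7 and 21.5 CPM with miR-885-5p. The groups came close, with Control library 3 near the lowest miR-885-5p library, and the log2 fold change was 0.47 (SE 0.11, adjusted p = 0.00659).

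SREBF2, which encodes the SREBP that chiefly drives cholesterol genes (chromosome 22, 41833079 to 41907308), had 208, 209 and 204 CPM in control and 310, 314 and 305 CPM with miR-885-5p. It rose by 0.58 (SE 0.03, adjusted p = 9.00e-07). SREBF1, whose protein chiefly drives fatty acid genes, had 152, 161 and 155 CPM in control and 150, 155 and 142 CPM with miR-885-5p. Its groups overlapped, the log2 fold change was -0.07 (SE 0.04, adjusted p = 0.232), and it passed under 0 of the 16 other settings, where the value ran from -0.10 to 0.0044. In FPKM the ratio of SREBF2 to SREBF1 was 1.02, 0.975 and 0.958 in control and 1.52, 1.52 and 1.55 with miR-885-5p. The counts do not separate the promoter variants of SREBF1.

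The escort gene SCAP had 73.7, 77.6 and 82.9 CPM in control and 83.8, 87.2 and 82.1 CPM with miR-885-5p. These overlapped, and the log2 fold change was 0.11 (SE 0.05, adjusted p = 0.0910). SCAP passed under 4 of the 16 other settings, which were total-count scaling, both FPKM fits and leaving out Control library 3, with adjusted p from 0.0146 to 0.308. Of the proteases that cut SREBP, MBTPS2 rose by 0.45 (SE 0.05) and MBTPS1 by 0.14 (SE 0.03, adjusted p = 0.00757). MBTPS1 passed the threshold with a small change because its spread was small, 108 ± 0.669 CPM in control against 119 ± 1.42.

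All 4 genes of receptor turnover and sterol transport rose, and 0 passed the 1.5-fold test. NPC1, the lysosomal membrane protein that exports cholesterol, had 399, 395 and 421 CPM in control and 604, 622 and 592 CPM with miR-885-5p (log2 fold change 0.58, SE 0.04). NPC2, the soluble lysosomal protein that hands cholesterol to NPC1, had 121, 114 and 116 CPM in control and 170, 174 and 181 CPM with miR-885-5p (log2 fold change 0.58, SE 0.04). The partners were thus raised by a like amount, without overlap between groups. STARD4, a cytosolic sterol carrier, rose by 0.72 (SE 0.07). MYLIP, a ubiquitin ligase that sends lipoprotein receptors to degradation, was the weakest member, with 3.43, 3.03 and 2.68 CPM in control and 4.69, 5.74 and 3.65 CPM with miR-885-5p. Its log2 fold change was 0.63 (SE 0.19, adjusted p = 0.0214). Leaving out Control library 3 ended that call (adjusted p = 0.0522), as did leaving out miR-885-5p library 1 (0.0524) or 2 (0.0996). Over all settings its adjusted p ran from 0.0049 to 0.0996.

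**Figure D3:**
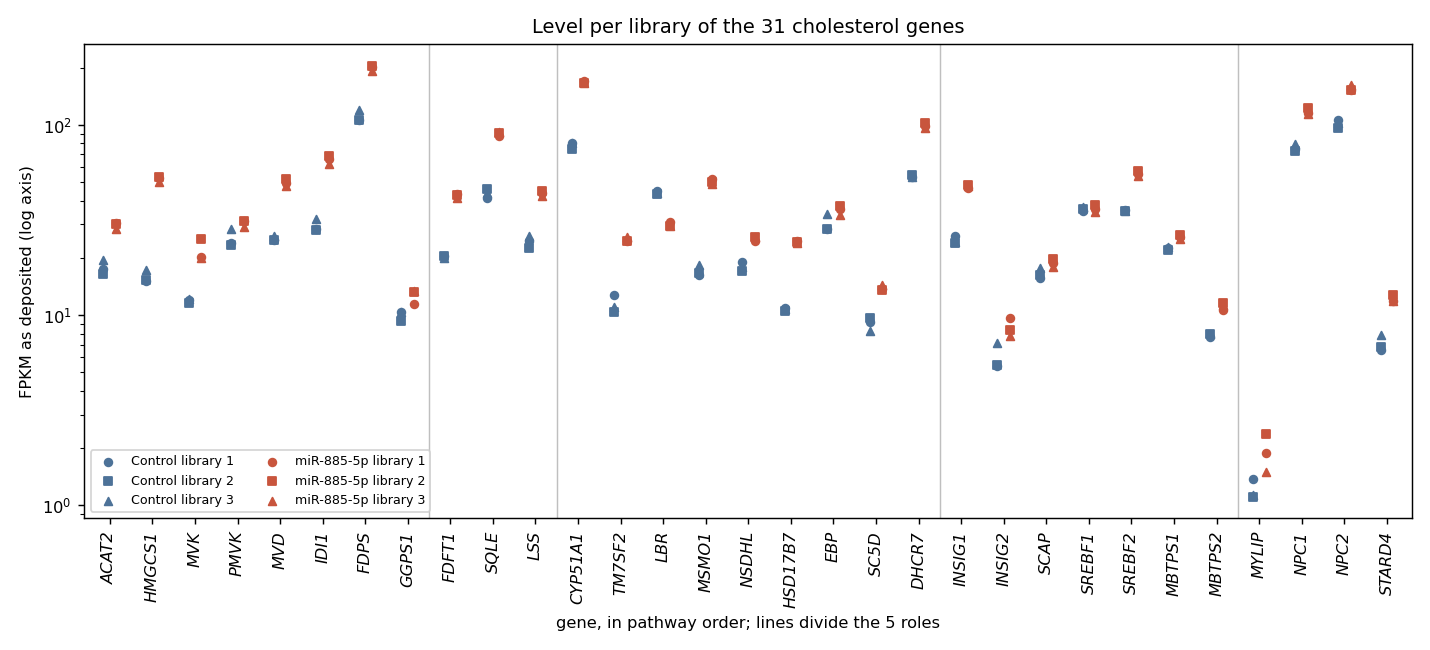
FPKM of each of the 31 genes in each library (vertical log axis, 1 point per library), in pathway order along the horizontal axis, Control in blue and miR-885-5p in red. FDPS at 111 ± 8.09 and NPC2 at 101 ± 4.94 FPKM were highest in control and MYLIP at 1.21 ± 0.151 was lowest.

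Levels differed widely along the pathway. In control cells FDPS stood at 111 ± 8.09 FPKM, CYP51A1 at 78.5 ± 3.01, DHCR7 at 53.9 ± 0.870 and SQLE at 43.8 ± 2.17. At the low end were SC5D at 9.03 ± 0.729, GGPS1 at 10.1 ± 0.626, HSD17B7 at 10.8 ± 0.198 and TM7SF2 at 11.4 ± 1.19 FPKM. HMGCS1 and MSMO1, which changed most, were in between at 15.9 ± 1.21 and 17.1 ± 1.08 FPKM, and reached 51.9 ± 1.74 and 50.2 ± 1.39. Across the 20 enzymes the level in control and the log2 fold change had a Spearman correlation of -0.13. That value is across genes of the same 6 libraries and is given as a description.

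Control library 3 was often the highest control library for the mevalonate genes. It was highest for 7 of those 8 genes and for 15 of the 31 members, against 36.5% of all genes. For the mevalonate genes the median log2 difference of Control library 3 from the mean of Control libraries 1 and 2 was 0.14. INSIG2, EBP and PMVK stood 0.36, 0.25 and 0.24 above the other controls in that library, while SC5D stood at -0.22. Without Control library 3, 28 members were higher and 1 lower, 16 members passed the 1.5-fold test, and the median log2 fold change was 0.73. Among the libraries with the microRNA, library 2 was highest for MVK and MYLIP, and also for other members such as MVD, DHCR7, INSIG1, SREBF2 and NPC1.

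**Figure D4:**
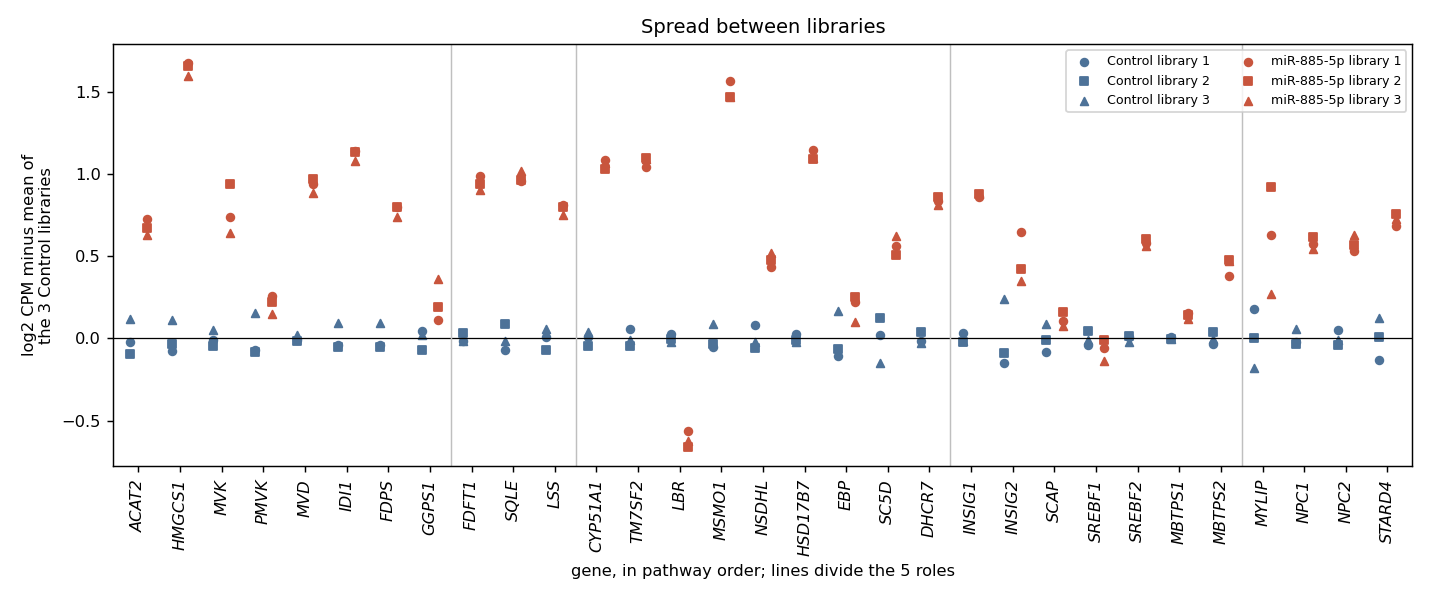
Log2 CPM of each library minus the mean of the 3 Control libraries (vertical axis) for the 31 genes in pathway order, with a marker shape for each library number. Blue triangles, Control library 3, lie above the other controls for 7 of the 8 mevalonate genes, and MVK, INSIG2 and MYLIP show the widest spread among miR-885-5p libraries.

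Some exons of members are shared with neighbours, and without known strandedness their reads cannot be told apart. ACAT2 shares 397 exonic bases with TCP1 on the opposite strand, and TCP1 had a log2 fold change of -0.23. On that strand ACAT2 also shares 1141 bases with SOD2 and 1458 with SOD2-OT1, which were not analysed here. Further overlaps were with antisense genes not analysed here, 703 bases in HMGCS1, 693 in FDPS and 643 in IDI1 among them. MVK shares 306 bases with MMAB, a cobalamin enzyme gene read from the opposite strand, which itself rose by 0.83. NPC1 shares 604 bases with RMC1 (log2 fold change -0.12, adjusted p = 0.0860) and SREBF1 556 with RAI1 (0.13, adjusted p = 0.0514), both on the opposite strand. On their own strand GGPS1 shares 1422 bases with an annotated TBCE model, MBTPS2 1093 with YY2 (0.09, adjusted p = 0.598) and CYP51A1 2844 with AC000120.2, which was not analysed here. The values of all these members are uncertain to that extent. FDPS, CYP51A1 and HSD17B7 have 8, 3 and 2 annotated pseudogenes of their name, and how shared reads were counted is not stated in the labels.

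Promoters were compared because the members moved together. RefSeq promoters (GRCh38.p14, 250 bases before to 50 after the start) were found for 28 of the 31 genes, with 37 promoters in all. The letters TCACNCCAC, the core of a sterol regulatory element, were searched on both strands, as were CCAAT, the box of the factor NF-Y, GGGCGG, the GC box, and CACGTG, an E-box. CCAAT was found in 56.8% of member promoters and in 34.6% of all 35116 promoters. GGGCGG was in 83.8% against 45%, and in 65.2% of the promoters of genes in the count table. CACGTG was in 13.5% against 7.26%, and in 9.31% of the promoters of genes in the count table, where CCAAT was in 35%. TCACNCCAC was in 1 member promoter, that of SREBF2, and in 1.13% of all promoters. Its strict spelling misses variants, and no match says only that these letters are not in this window.

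A gene was counted if any of its promoters held CCAAT, while the shares above are per promoter. Of the 11 genes with a promoter entry that passed the 1.5-fold test 10 held CCAAT, the exception being CYP51A1. Of these HMGCS1, IDI1 and DHCR7 also have a promoter without CCAAT. Of the other 17 genes 9 held it. INSIG2, LBR, MBTPS1, MBTPS2, NPC1, PMVK, SCAP and SREBF1 were those without. This division was made after the values had been seen and was not tested. The promoters of 4 genes are printed 5′ to 3′ on the strand of the gene, with CCAAT (or ATTGG, its reverse) and TCACNCCAC in capitals. HMGCS1 (chr5:43313363-43313662, minus strand) rose most, SREBF2 (chr22:41832855-41833154, plus strand) holds the sterol element, which starts 133 bases before the start site and does not overlap CCAAT, and TM7SF2 (chr11:65111622-65111921, plus strand) and LBR (chr1:225428772-225429071, minus strand) are the pair that went opposite ways.
HMGCS1: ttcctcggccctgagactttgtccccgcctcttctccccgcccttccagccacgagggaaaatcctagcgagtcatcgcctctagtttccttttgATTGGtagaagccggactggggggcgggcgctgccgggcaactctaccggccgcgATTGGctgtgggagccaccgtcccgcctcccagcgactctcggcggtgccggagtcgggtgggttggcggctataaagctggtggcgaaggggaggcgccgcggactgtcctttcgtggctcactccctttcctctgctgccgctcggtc
SREBF2: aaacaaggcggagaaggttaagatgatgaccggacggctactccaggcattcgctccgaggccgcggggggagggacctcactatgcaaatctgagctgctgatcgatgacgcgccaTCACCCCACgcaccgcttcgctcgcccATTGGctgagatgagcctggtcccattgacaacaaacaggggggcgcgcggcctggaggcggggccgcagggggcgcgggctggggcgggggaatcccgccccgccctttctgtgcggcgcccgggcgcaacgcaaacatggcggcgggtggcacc
TM7SF2: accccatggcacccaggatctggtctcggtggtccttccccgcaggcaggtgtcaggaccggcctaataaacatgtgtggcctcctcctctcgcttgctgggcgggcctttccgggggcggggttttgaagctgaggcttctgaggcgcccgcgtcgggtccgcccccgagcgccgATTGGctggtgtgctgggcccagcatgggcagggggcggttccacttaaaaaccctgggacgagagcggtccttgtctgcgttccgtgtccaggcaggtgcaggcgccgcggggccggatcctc
LBR: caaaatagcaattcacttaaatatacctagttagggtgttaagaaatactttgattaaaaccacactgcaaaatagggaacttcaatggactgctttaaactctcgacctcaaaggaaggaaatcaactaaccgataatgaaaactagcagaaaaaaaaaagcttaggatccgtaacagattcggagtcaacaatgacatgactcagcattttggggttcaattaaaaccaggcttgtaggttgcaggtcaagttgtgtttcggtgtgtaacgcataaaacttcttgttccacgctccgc

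HMGCS1 has CCAAT in reverse at 2 places, TM7SF2 and SREBF2 at 1 each, and LBR at 0. LBR also lacks the GC box in this window, as do NSDHL, MBTPS1 and MBTPS2, which rose. The E-box is absent from all the promoters printed above. None of these matches was tested for binding.

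Other genes of sterol biology were kept in lists apart from the members, and their counts stand beside 26.3% higher and 26.5% lower over all genes. Except for the first list these counts are small, and nothing is read from them. In the branch that turns isoprenoids into prenyl groups, dolichol and ubiquinone 7 of 13 fell and 1 rose, with a median log2 fold change of -0.21. NUS1, a subunit of the enzyme that makes dolichol, was at 84.3 ± 5.60 CPM in control and fell to 35.9 ± 0.991 with miR-885-5p (log2 fold change -1.23, SE 0.06, adjusted p = 2.45e-07). Its partner subunit DHDDS fell by 0.48 and ICMT, which methylates prenylated proteins, by 0.49 on the log2 scale. DHDDS and ICMT, and NFYC, OSBPL9 and SORT1 of the lists below, lie on the short-arm side of chromosome 1, where 387 of 694 genes fell and the median was -0.23. Of those 694 genes 76 rose. The part of this in their values was not tested. NUS1 lies elsewhere, and the 5 members on chromosome 1, FDPS, GGPS1, HSD17B7, LBR and PMVK, lie on its other side. There 271 of 575 genes rose, 99 fell and the median was 0.16, a level near which PMVK (0.21) and GGPS1 (0.22) stood. The part of this in the members' values was not tested either.

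Of 5 genes listed for cholesteryl ester turnover 1 rose and 2 fell. The 5 include ACAT1 (-0.08, not past the threshold), which encodes a mitochondrial thiolase and does not act on the esters. LIPA, the lysosomal lipase that frees cholesterol from its esters, was at 65.5 ± 1.17 CPM in control and rose to 117 ± 3.70 (log2 fold change 0.83, SE 0.04), while NCEH1, another ester hydrolase gene, changed by -0.44 and SOAT1, which makes the esters, by -0.13. Of 8 genes of the sterol receptor LXR and of efflux 2 rose and 2 fell. ABCA1, the exporter of cholesterol, was at 33.5 ± 1.25 CPM in control and fell to 20.9 ± 0.666 with miR-885-5p (log2 fold change -0.68, SE 0.06). LPCAT3, a phospholipid acyltransferase gene that LXR switches on, fell by 0.86 on the log2 scale, while APOE, the apolipoprotein gene, rose by 0.45.

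Among 9 lipoprotein receptors and adaptors 5 rose and 1 fell. CD36, a scavenger receptor, rose from a low level, 1.79 ± 0.233 to 7.12 ± 1.06 CPM (log2 fold change 1.99, SE 0.17), LRP1 rose by 0.60 and SORT1 by 0.38. Of 11 genes of non-vesicular sterol transfer 3 rose and 2 fell, with GRAMD1A, a carrier between plasma membrane and endoplasmic reticulum, at 0.61, OSBPL9 at -0.30 and VAPA at -0.15. Of 7 genes of the degradation machinery that acts on sterol-regulated proteins 1 rose and 3 fell, with FAF2 at -0.32 and VCP at -0.21. Of 12 SREBP partners and escort genes 4 rose and 1 fell. They were led by PAQR3 at 0.38, the COPII coat gene SEC23A at 0.40 and NFYC, a subunit of NF-Y, at -0.46. The NF-Y subunit genes went different ways, with NFYB at 0.34 (adjusted p = 0.00445) and NFYA at -0.01 (adjusted p = 0.877). The median of each of these 6 lists lay between -0.08 and 0.17, with 0.67 for the members. The -0.08 was that of the cholesteryl ester list and is the value of ACAT1 itself. Over the 7 lists an 8mer site for miR-885-5p was found in FNTA (-0.18), SOAT1 (-0.13), VLDLR (-0.03, adjusted p = 0.811) and SORT1 (0.38), and a 7mer-m8 as the strongest site in ABCA1 (-0.68), FAF2 (-0.32) and OSBPL2 (0.18), so genes with such sites went both ways.

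**Figure D5:**
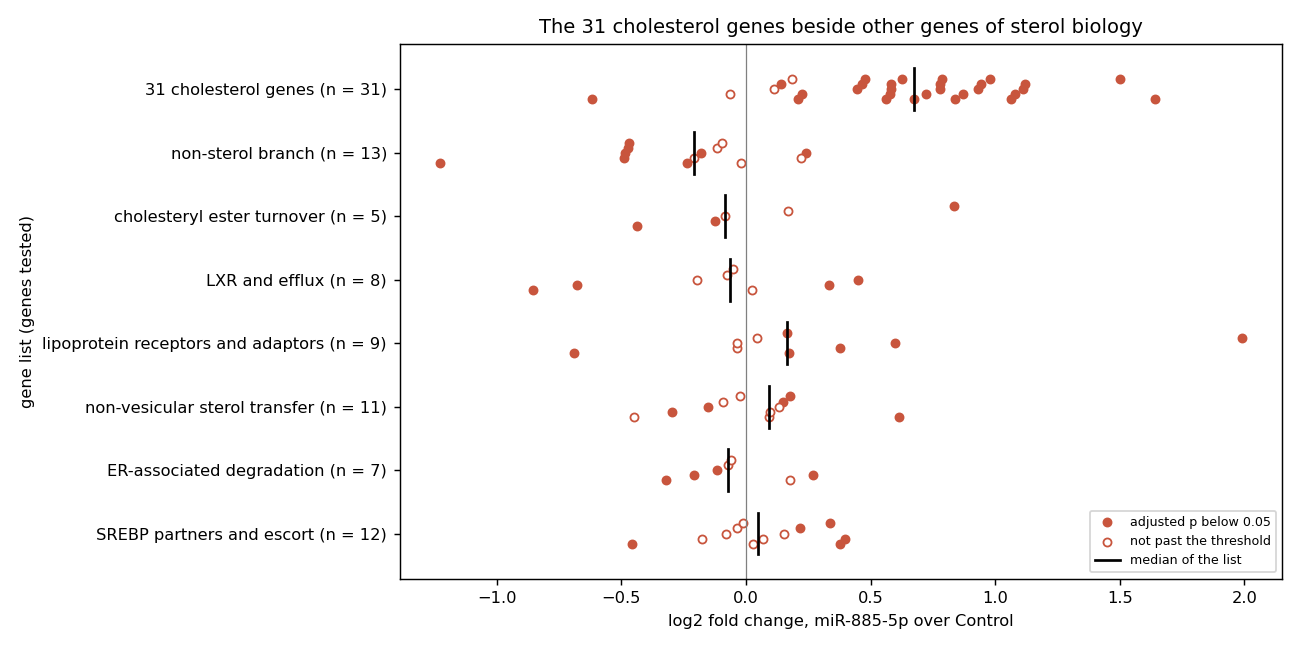
Log2 fold change of miR-885-5p over Control (horizontal axis) for every tested gene of the 31 members and of 7 other lists (vertical axis), filled where the adjusted p was below 0.05, with a bar at the median of each list. The members lie mostly right of 0 with a median of 0.67, and the non-sterol branch has a median of -0.21.

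Total counts ran from 46382314 to 56409821 per library, and every member was tested. MIR885 and its host gene ATP2B2 were not analysed here, so the overexpression was not checked. Of 17 listed hepatocyte markers 7 were in the table, of which 5 fell, 4 of them past the 1.5-fold test, and 0 rose, with a median log2 fold change of -0.97. Among them were the fibrinogen genes FGG (-1.44), FGA (-1.64) and FGB (-2.20). The 7 had summed FPKM from 1149 to 1242 in control and from 1014 to 1058 with miR-885-5p, mostly from the keratins KRT8 and KRT18, which other epithelia also express. ALB, APOB and HNF4A are among those not analysed here. Of 6 fibroblast markers 3 were in the table, of which 2 rose, with summed FPKM from 2.72 to 3.23 in control and from 5.27 to 5.76 with miR-885-5p, and of 6 leukocyte markers 2, CD68 and CD14, with 57.6 to 66.3 and 62.9 to 64.2, almost all of it CD68 (log2 fold change -0.03), while CD14 fell by 0.83. Their part in the results was not tested. The authors' deposited table gave the same sign as edgeR for all 31 members, and its log2 fold changes differed by at most 0.0008.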

How the data were processed

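Per the labels' protocols RNA was column-purified and libraries were made with a NEBNext Ultra kit, with no word on strand. GRCh38, StringTie 2.2.1, HISAT2 2.0.4 and DESeq2 1.38.3 are listed, per the submitters' processing notes, without their roles. Per the file headers, the authors deposited a raw count and an FPKM value per gene and library, together with their own log2 fold change and p-value for miR-885-5p over control, whose test is not named. All 14034 rows had at least 1 CPM in 3 or more libraries, so weak genes had been left out before deposit, and 1614 rows are gene models without an Ensembl ID.

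Groups and numbers came from the sample titles. The count test was the quasi-likelihood F test of edgeR 4.0.16 (R 4.3.3) after TMM scaling and filterByExpr, which removed 0 genes, with glmTreat for the 1.5-fold test, and p-values were adjusted by Benjamini-Hochberg over all 14034 genes, with a threshold of 0.05. The SE is the absolute log2 fold change divided by the square root of F. FPKM served for levels between genes. Replicate counts differed by more than sampling noise (chi-square over its degrees of freedom was 7.95 to 40.5 for pairs within a group). Precision is limited by 3 libraries per group. Seed sites were searched in the longest 3′ UTR of each gene (GENCODE 29, which uses the build of the files).

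The members and lists were chosen with earlier results of these data known. All members were named; values of each library were given for the 5 largest rises, the gene that fell, the regulators and 8 further genes, and for the other lists the 3 genes with the smallest adjusted p. Some genes that this rule takes are not reported here. Neighbouring genes, marker genes and genes named for a seed site alone were named after their values were seen, as were ACAT1, NFYA and NFYB. The code was also tested on simulated data. Alternatives were DESeq2 1.42.0, limma-voom and limma on log2(FPKM + 1) or log2(FPKM + 0.1) (limma 3.58.1), 3 other scalings, no filter, a filter at 5 CPM in 3 libraries, the replicate number as a block, and leaving out each library.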

Additional observations from a re-analysis of the deposited data

How the results depend on the processing

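Over 16 other settings, 25 to 29 members were called higher and 1 lower, and over the 12 settings that allow the 1.5-fold test 13 to 16 passed it upward and 0 downward. Leaving out each library in turn gave 25 to 28 members higher, 13 to 16 past the 1.5-fold test and a median log2 fold change from 0.63 to 0.73, the highest without Control library 3. The median was also 0.73 with limma on log2(FPKM + 0.1), where the median of all genes was 0.05. The cause was not tested. With the replicate number as a block 26 members were higher and 1 lower, 13 passed the 1.5-fold test and the median was 0.68, so the block ended 1 call, that of PMVK. No pairing by number was seen: same-numbered libraries had correlations of -0.12, -0.08 and -0.17 between their deviations from the group means. No library correlated best with its own number. Deviations within a group sum to 0, so these weak correlations cannot show that the libraries were unpaired. Of single members, PMVK, GGPS1 and MYLIP lost their call under some settings and EBP and SCAP gained one, 10 and 11 times in all, and 474 other values kept their side of the threshold. Under the 5 CPM filter MYLIP was left out. The count of 3 libraries per group limits what small changes, such as those of SCAP and EBP, can show.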
